A study of Mus musculus with 12 samples.

Results

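Oligodendrocyte precursor cells are the dividing glial cells that give rise to myelin-forming oligodendrocytes, and 6 of their best known genes were followed here over 4 sorted cell groups of the mouse spinal cord. The genes were Pdgfra, Cspg4, Lhfpl3, C1ql1, Neu4 and Gpr17. They were found by their names in the authors' deposited table of astrocytes against non-astrocytes, where each had 1 probe set, giving 6 probe sets of the 28467 that were tested and 6 of 4575 named genes. RNA came from spinal cords of postnatal day 7 mice carrying the Aldh1l1-GFP transgene on a Swiss-Webster background, in which green fluorescent protein marks astrocytes. After papain dissociation, the dorsal and the ventral part were each sorted by flow cytometry into GFP-positive cells, called astrocytes in the labels, and GFP-negative cells, called non-astrocytes. Region and sort together gave 4 groups, each with 3 biological replicates, on 12 arrays in all, and every group carried the transgene. The labels do not say whether a replicate was 1 animal or a pool, so the p-values measure the spread between these samples.

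In the developing cord, precursor cells respond to platelet-derived growth factor through the receptor encoded by Pdgfra and carry the surface proteoglycan NG2, encoded by Cspg4. As they commit to the oligodendrocyte fate they lose both and pass through a stage marked by Gpr17 before they make myelin. No sort in this study isolated them. They were taken to belong to the GFP-negative remainder, together with myelinating oligodendrocytes, neurons, microglia, endothelial cells and pericytes. Whether some precursors were GFP-positive was not tested. Cspg4 is also a gene of pericytes, and Pdgfra one of meningeal fibroblasts.

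The sorts carried the marks of their labels. Aldh1l1, whose promoter drives the transgene, had a mean log2 signal of 9.65 ± 0.35 in dorsal and 9.32 ± 0.21 in ventral astrocytes, against 5.95 ± 0.09 in dorsal and 5.82 ± 0.12 in ventral non-astrocytes (SD, n = 3 each). The array medians lay between 6.57 and 6.62, and the first principal component, with 69.5% of the variance, separated both sorts. Signals are RMA values on a log2 scale, and the number of arrays limits their precision. In such bulk samples, fewer cells of a type and less RNA per cell cannot be told apart.

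The promoters of 4 of the 6 genes were in the RefSeq table of build GRCm38.p6, as windows from 250 bases before to 50 bases after a transcript start. That of Pdgfra, which had the widest gap between the sorts, is shown. Capitals mark matches to short motifs of the families of Sox10 (ACAANG) and Olig2 (CATCTG), factors of the oligodendrocyte lineage, searched on both strands. The plus strand at chr5:75152001-75152300 reads as follows.
Pdgfra: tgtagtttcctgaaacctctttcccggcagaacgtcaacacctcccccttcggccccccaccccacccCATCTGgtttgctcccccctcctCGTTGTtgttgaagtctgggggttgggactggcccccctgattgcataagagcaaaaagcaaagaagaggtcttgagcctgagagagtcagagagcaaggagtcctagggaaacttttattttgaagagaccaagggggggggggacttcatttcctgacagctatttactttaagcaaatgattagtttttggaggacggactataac
The Pdgfra window held 1 match of the Sox10 type on the minus strand and 1 of the Olig2 type on the plus strand, which did not overlap. The windows of Lhfpl3, Cspg4 and Neu4 held 0 matches to either motif. Over all 32851 promoters of this length in the table, 41.2% held the Sox10 type and 17.2% the Olig2 type, so the matches are a description of these letters.

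The first question was how the precursor genes divided between both sorts. All 6 were lower in astrocytes than in non-astrocytes of the same region, and for all 6 the 6 astrocyte values lay below the 6 non-astrocyte values. Pdgfra and Gpr17 had the widest gap and Cspg4 and Lhfpl3 the narrowest. Within each region all 6 were called as well, where 13.8% of probe sets were lower dorsally and 13.8% ventrally. Across all probe sets and both regions, 19.7% were lower in astrocytes at an adjusted p under 0.05 and 12.0% were lower without overlap. The names were known only from a table the authors chose by this comparison, up to an adjusted p of 0.15, so nothing further is read from the count of 6. Even on the astrocyte arrays, Lhfpl3 lay above 89.0 to 93.2% of probe sets and Gpr17 above 74.0 to 85.5%. There Pdgfra lay above 71.2 to 81.4% and C1ql1 above 67.4 to 85.6%.

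Pdgfra, the receptor gene, stood at 10.78, 10.82 and 10.72 in dorsal and 10.37, 10.26 and 10.03 in ventral non-astrocytes. In astrocytes it stood at 8.28, 8.16 and 7.57 dorsally and 7.77, 8.05 and 7.58 ventrally. Its order was dorsal non-astrocytes, ventral non-astrocytes, and then both astrocyte groups, whose values overlapped. The log2 difference of astrocytes minus non-astrocytes was -2.77 (SE 0.17) in the dorsal and -2.42 (SE 0.17) in the ventral part, or 6.82-fold and 5.35-fold less signal.

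Cspg4, the NG2 gene, had a lower signal. It stood at 7.69, 7.71 and 7.53 in dorsal and 7.28, 7.33 and 7.31 in ventral non-astrocytes, and at 6.55, 6.71 and 6.79 in dorsal and 6.86, 6.91 and 6.76 in ventral astrocytes. Dorsal non-astrocytes were highest and ventral ones next, without overlap, while both astrocyte groups overlapped near the array medians, where the size of a change is less certain. The log2 difference between the sorts was -0.96 (SE 0.09) dorsally and -0.46 (SE 0.09) ventrally.

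Lhfpl3 encodes a membrane protein of the tetraspan type. Its values were 10.46, 10.71 and 10.52 in dorsal and 10.12, 10.35 and 10.13 in ventral non-astrocytes, then 9.60, 9.74 and 9.61 in ventral and 9.10, 9.04 and 9.5 in dorsal astrocytes. No neighbouring groups in this order overlapped. The log2 difference between the sorts was -1.35 (SE 0.13) dorsally and -0.55 (SE 0.13) ventrally, and leaving out all replicate 1 arrays ended the ventral call (adjusted p = 0.053 in limma).

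C1ql1 encodes a secreted protein related to complement C1q, known as a synaptic ligand. It stood at 9.47, 9.73 and 9.22 in dorsal and 9.38, 9.11 and 8.76 in ventral non-astrocytes, 8.10, 8.55 and 8.59 in ventral astrocytes and 7.90, 7.81 and 7.36 in dorsal astrocytes. The non-astrocyte groups overlapped and the other neighbours did not. The log2 difference between the sorts was -1.78 (SE 0.20) dorsally and -0.67 (SE 0.20) ventrally. The ventral value was called with an adjusted p of 0.022 in limma, which rose to 0.093 without ventral astrocytes 1, 0.10 without ventral non-astrocytes 1 and 0.065 without ventral non-astrocytes 2. It was -0.37 without all arrays of replicate 1 (adjusted p = 0.30) and -0.73 without those of replicate 2 (adjusted p = 0.10).

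Neu4 encodes a sialidase, an enzyme that takes terminal sialic acids off glycans. It stood at 8.16, 7.98 and 8.02 in dorsal and 8.10, 7.95 and 8.36 in ventral non-astrocytes, which overlapped. In astrocytes it stood at 7.01, 6.75 and 6.81 ventrally and 6.56, 6.42 and 6.47 dorsally, with all dorsal values under the array medians, so the size of its change is less certain too. The log2 difference between the sorts was -1.57 (SE 0.11) dorsally and -1.27 (SE 0.11) ventrally.

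Gpr17, the receptor gene of committed precursors, stood at 10.71, 10.79 and 10.62 in dorsal and 10.67, 10.70 and 10.60 in ventral non-astrocytes. These groups overlapped and spanned less than any other gene here. In astrocytes it stood at 8.61, 8.54 and 8.13 ventrally and 8.28, 7.75 and 8.41 dorsally, again with overlap. The log2 difference between the sorts was -2.56 (SE 0.16) dorsally and -2.23 (SE 0.16) ventrally, or 5.88-fold and 4.68-fold less signal.

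**Figure D1:**
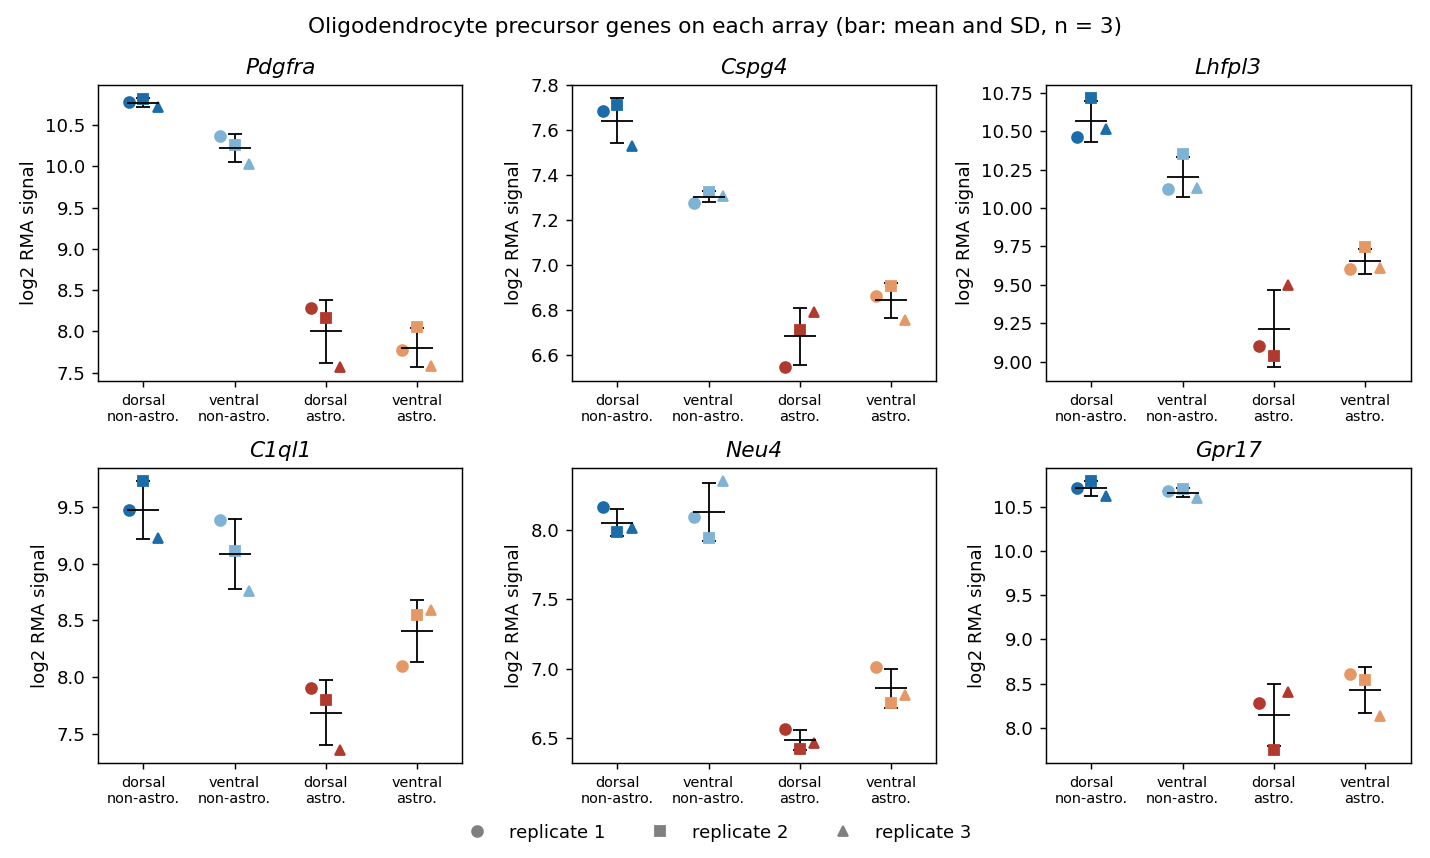
Log2 RMA signal of the 6 genes on each of the 12 arrays, by group, with marker shapes for the replicate numbers and bars for the mean and SD of 3 arrays. Each vertical axis has its own range, and every astrocyte value lies below every non-astrocyte value of the same gene.

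All 6 sort differences were larger in the dorsal than in the ventral part, but no gene passed the test of that difference, which is given with the regional comparison. The gap between both regions was 1.11 log2 units for C1ql1, 0.80 for Lhfpl3 and 0.50 for Cspg4, and 0.30 to 0.35 for the other 3.

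**Figure D2:**
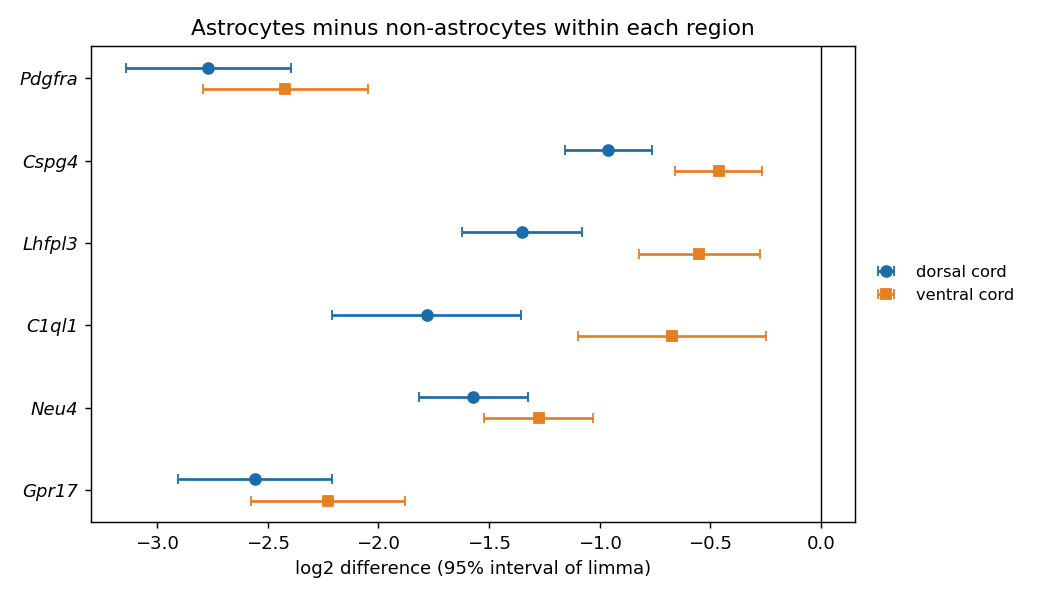
Log2 difference of astrocytes minus non-astrocytes within the dorsal (circles) and the ventral (squares) part for the 6 genes, with the 95% interval of limma. All values lie below 0, from -2.77 for Pdgfra to -0.46 for Cspg4, and each dorsal value lies further from 0 than the ventral one.

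The second question was whether the precursor genes differed between the dorsal and the ventral part among the non-astrocytes, the sort taken to hold the precursors. In limma 0 of the 6 passed an adjusted p of 0.05, where 0.0492% of all probe sets did (14, 0 with the replicate number as a block, and 0 to 31 when 1 array or 1 replicate number was left out). Of the 4575 named genes, 3 were called higher and 2 lower dorsally. The values of Pdgfra, Cspg4 and Lhfpl3 were higher dorsally on all 3 dorsal arrays than on all 3 ventral ones. Such a separation in this direction was found for 5.73% of probe sets. The log2 difference of dorsal minus ventral was 0.55 (SE 0.17) for Pdgfra, 0.36 (SE 0.13) for Lhfpl3 and 0.34 (SE 0.09) for Cspg4, with adjusted p of 0.56, 0.64 and 0.41. These 3 had an unadjusted p under 0.05, which 2.50% of probe sets and 287 of the 4575 named genes reached in this direction. With the replicate number as a block, which paired these arrays, the adjusted p were 0.29, 0.57 and 0.40.

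The same-numbered arrays differed alike. For Pdgfra the dorsal minus ventral differences of replicates 1, 2 and 3 were 0.41, 0.55 and 0.68, and for Lhfpl3 they were 0.34, 0.36 and 0.39. For Cspg4 they were 0.41, 0.39 and 0.22. C1ql1 was higher dorsally in all 3 pairs as well, by 0.09, 0.62 and 0.46, with a mean of 0.39 (SE 0.20, adjusted p = 1 in limma).

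The values of Gpr17 and Neu4 lay nearer to 0. Gpr17 stood at 0.05 (SE 0.16), with a 95% interval from -0.30 to 0.40, and Neu4 at -0.08 (SE 0.11), with an interval from -0.32 to 0.17. The interval of Gpr17 includes the values of Lhfpl3 and Cspg4, that of Neu4 does not, and a test between genes was not made.

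The third question was the same comparison among the GFP-positive cells. Again 0 of the 6 passed, where 0.341% of all probe sets did. Of the 4575 named genes, 21 were called higher and 38 lower dorsally. Here 5 of the 6 values were higher in the ventral part, the exception being Pdgfra at 0.20 (SE 0.17). C1ql1 stood at -0.72 (SE 0.20), Lhfpl3 at -0.44 (SE 0.13) and Neu4 at -0.37 (SE 0.11), with adjusted p of 0.20, 0.23 and 0.25 in limma. In these 3 genes all ventral astrocyte values lay above all dorsal ones, as in 7.23% of probe sets. Their unadjusted p was under 0.05, as for 5.94% of probe sets and 371 of the 4575 named genes in this direction. Gpr17 stood at -0.28 (SE 0.16) and Cspg4 at -0.16 (SE 0.09), with overlapping groups.

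Lhfpl3 thus had higher dorsal values among non-astrocytes and higher ventral values among astrocytes, without overlap in either sort. How many probe sets had both was not counted. The difference of both regional values was 0.80 (SE 0.18, 95% interval 0.42 to 1.19) for Lhfpl3, 1.11 (SE 0.28, interval 0.51 to 1.71) for C1ql1 and 0.50 (SE 0.13, interval 0.22 to 0.78) for Cspg4. Adjusted over all probe sets these did not pass in limma, with adjusted p of 0.26, 0.35 and 0.35, where 0.0632% of probe sets were called. The unadjusted p of these 3 was under 0.05, as for 3.84% of probe sets and 286 of the 4575 named genes in this direction. Of the named genes, 8 were called with a positive and 6 with a negative difference. For Pdgfra, Gpr17 and Neu4 the difference was 0.35 (SE 0.24), 0.33 (SE 0.23) and 0.30 (SE 0.16), with intervals that included 0.

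**Figure D3:**
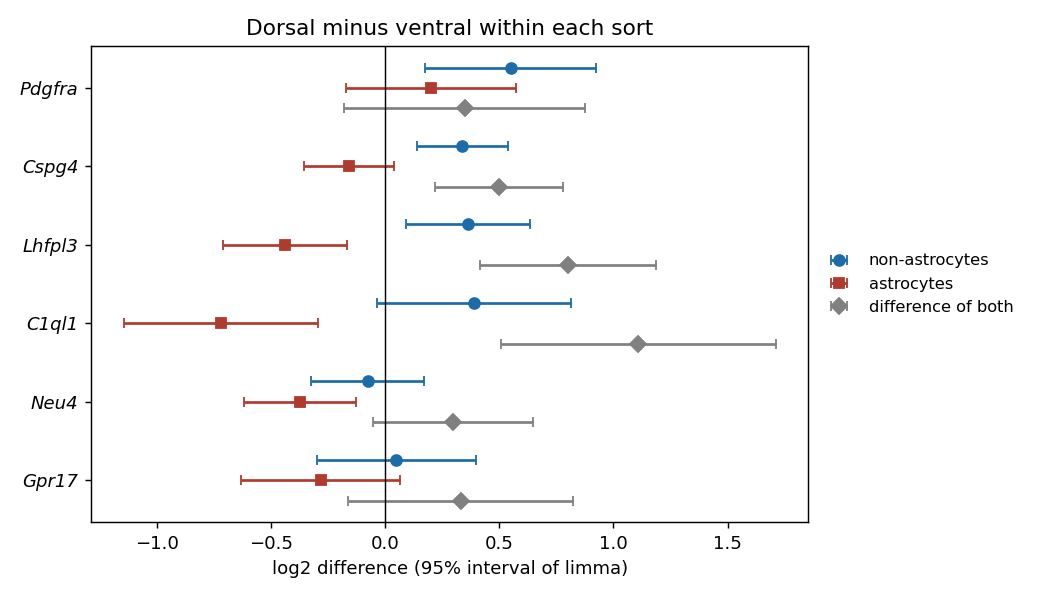
Log2 difference of dorsal minus ventral for the 6 genes among non-astrocytes (circles) and astrocytes (squares), and the difference of both (diamonds), with the unadjusted 95% interval of limma. Values among non-astrocytes run from -0.08 for Neu4 to 0.55 for Pdgfra, and those among astrocytes from -0.72 for C1ql1 to 0.20 for Pdgfra.

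Further genes of the lineage were followed by stage. The lists held 39 other genes of precursors, 30 of committed oligodendrocytes and 30 of myelinating oligodendrocytes, of which 28, 28 and 24 had a name in these data. Nearly all named genes differ between the sorts by the way they were named (2238 called higher and 2319 lower in astrocytes of 4575), so the counts of genes called at an adjusted p under 0.05 in limma are given as a description. Of the precursor list, 23 were called lower and 5 higher in astrocytes (median -0.86, against -0.37 over all named genes and -0.01 over all probe sets). The lowest were Pcdh15 at -2.61, which encodes a protocadherin, Galnt13 at -2.35, an enzyme of O-glycosylation, and Tnr at -2.26, the matrix glycoprotein tenascin-R. The 5 higher ones included Ncan at 2.26 and Bcan at 1.27, which encode matrix proteoglycans, and Ptprz1 at 0.70, a receptor phosphatase, genes that astrocytes also express. The lineage factors Sox10 and Olig2 stood at -1.22 and -0.45.

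Of the committed list, all 28 had lower values in astrocytes over both regions together and 27 were called lower, the exception being Gpr37 at -0.30 (median -1.29). Gpr37 stood at -1.01 dorsally (adjusted p = 0.00048 in limma) and at 0.41 ventrally (adjusted p = 0.087), without overlap in either region. The list was led by the phosphodiesterase gene Enpp6 at -2.32, the fatty acid elongase gene Elovl7 at -2.32 and Chn2 at -2.06, which encodes a regulator of the GTPase Rac. All 24 of the myelinating list were called lower (median -2.13), led by Ermn at -3.17, a cytoskeletal protein of myelin, Ppp1r14a at -3.00 and Opalin at -2.83. The 6 precursor genes had a median of -1.33.

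Among non-astrocytes the stages stood on different sides of 0 in the regional comparison, although none of the members of these 3 lists passed. Of the precursor list, 20 of 28 had higher dorsal values (median 0.11), and the 3 with an unadjusted p under 0.05 were all higher dorsally, with Pcdh15 at 0.53 and the zinc finger gene Myt1 at 0.46 the largest of the list. Of the committed list, 26 of 28 had higher ventral values (median -0.15), 4 of them with an unadjusted p under 0.05. All 24 of the myelinating list had higher ventral values (median -0.33). Of them 10 had an unadjusted p under 0.05, as did 2.74% of all probe sets and 276 of the 4575 named genes in this direction. Mog, a myelin surface protein, at -0.42 was among these 10, while Mbp, the myelin basic protein gene, at -0.18 was not. The median over all probe sets was 0.00. These genes share arrays and cells, and a test between the lists was not made.

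Among astrocytes, 17 of 28 precursor, 21 of 28 committed and 20 of 24 myelinating genes had higher ventral values (medians -0.07, -0.24 and -0.21, against -0.02 over all probe sets). Of these, 2, 10 and 7 had an unadjusted p under 0.05 in limma. In this direction 5.94% of all probe sets and 371 of the 4575 named genes did. Called were Sulf2 of the precursor list, a heparan sulfate sulfatase, at -1.13 (SE 0.16, adjusted p = 0.010 in limma) and Gpr37 of the committed list, an orphan receptor, at -1.87 (SE 0.16, adjusted p = 4e-04). Sulf2 was called in 18 of 22 alternatives (adjusted p up to 0.14) and Gpr37 in 22 of 22. Mbp stood at -0.53 (SE 0.11, adjusted p = 0.09 in limma), without overlap. Mog stood at -0.15 (SE 0.17, adjusted p = 0.81), with overlapping groups. The mean log2 signal of the myelinating list was 7.81 to 8.39 in dorsal and 8.25 to 8.31 in ventral astrocytes, against 9.91 to 10.26 and 10.38 to 10.60 in non-astrocytes. Some lists of other cells had mostly higher ventral values in astrocytes too and others did not, with 0 called. These were 6 of 7 neuronal genes (median -0.29, 3 with an unadjusted p under 0.05), with Nefm at -0.85, Nefl at -0.76 and Gap43, a growth cone protein gene, at -0.65, and their mean signal was 7.24 to 7.62 dorsally and 7.39 to 7.98 ventrally. They were also 4 of 5 red blood cell genes (median -0.10, 2 with an unadjusted p under 0.05), with the globin gene Hbb-b1 at -0.75, at 7.29 to 7.81 and 7.74 to 7.96, and 16 of 20 proliferation genes (median -0.09, 0 with an unadjusted p under 0.05). Higher dorsal values were found for 10 of 14 microglia genes (median 0.17), 5 of 8 pericyte genes (median 0.04) and 8 of 15 astrocyte genes (median 0.04). Fibroblast genes divided evenly, with 3 of 6 higher dorsally (median 0.07). Endothelial and Schwann cell genes had mostly higher ventral values, with only 2 of 9 (median -0.004) and 1 of 4 (median -0.06) higher dorsally. The part of any of these cells in the regional values of the 6 genes was not tested.

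**Figure D4:**
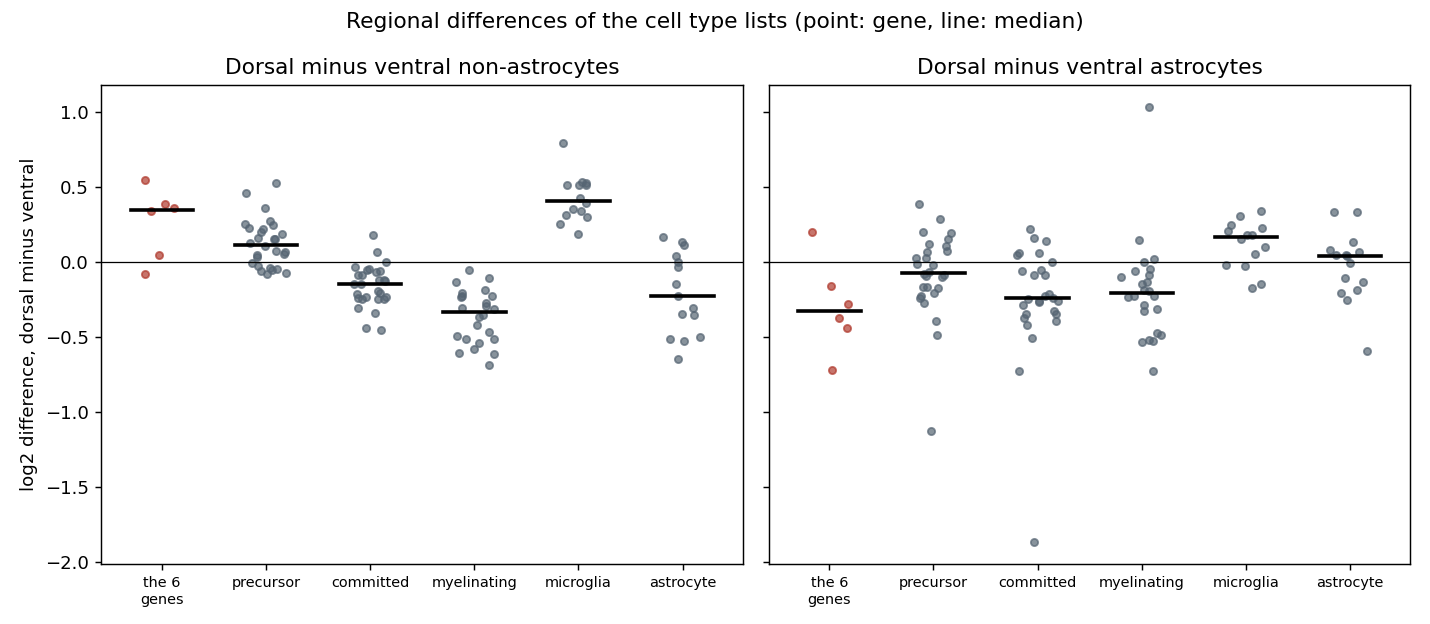
Log2 difference of dorsal minus ventral among non-astrocytes (left) and astrocytes (right) for the 6 genes and the named members of 5 cell type lists, with 1 point a gene and a line at the median. Among non-astrocytes the medians were 0.35 for the 6 genes, 0.11 for precursor, -0.15 for committed, -0.33 for myelinating, 0.41 for microglia and -0.23 for astrocyte genes.

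Markers of the other cells were compared between the regions of the GFP-negative sort as well, and 0 of those in the next 4 lists were called. All 14 named microglia genes had higher dorsal values among non-astrocytes (median 0.41, 5 with an unadjusted p under 0.05, 0 called), and their mean signal was 8.72 to 8.91 in dorsal and 8.14 to 8.70 in ventral non-astrocytes. Of the 15 astrocyte markers, 11 had higher ventral values there (median -0.23, 5 with an unadjusted p under 0.05, 0 called), at 6.96 to 7.06 dorsally and 7.02 to 7.37 ventrally. Pericyte genes, which bear on Cspg4, divided 3 to 5 of 8 (median -0.05), at 7.74 to 8.74 dorsally and 8.18 to 8.75 ventrally. Fibroblast genes, which bear on Pdgfra, had 5 of 6 higher dorsally (median 0.05), at 6.72 to 6.96 and 6.67 to 6.82. The part of these cells in the values of the 6 genes was not tested.

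Calls between the sorts are again a description, since 2238 of the 4575 named genes were called higher and 2319 lower in astrocytes. Counted by calls, microglia genes were lower in astrocytes in 14 of 14, with Ctss at -2.95. Pericyte genes were lower in 7 of 8, with Rgs5 at -3.14 and the receptor gene Notch3 higher at 0.76. Endothelial genes were lower in 8 of 9, with Cdh5 at -1.05 and Slco1c1 at 0.88 not called, red blood cell genes in 5 of 5, and proliferation genes in 20 of 20, with Top2a at -2.06. Neuronal genes were lower in 5 of 7, with Dcx at -2.17, while Nefl at 0.93 and Nefm at 0.78, which encode neurofilament proteins, were higher. Of the Schwann cell list 3 of 4 were called lower, of which Sox10 is also on the precursor and Mal on the myelinating list. Cdh19 at 0.66 had a higher value that was not called (adjusted p = 0.081 in limma). Fibroblast genes were higher in astrocytes in 5 of 6, with Thbs2 at 1.82 and Igf2 lower at -0.52, and astrocyte genes in 15 of 15, with Slc39a12 at 5.55.

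The genes most like each of the 6 were sought among the other 4569 named genes, by the root mean square difference of log2 values over the 12 arrays after each gene was centred on its mean. Since both sorts set most of that distance, the measure describes size and direction together. Nearest to Pdgfra were Hpgds (0.26), Pcdh15 (0.27), Galnt13 (0.27), Prkcq (0.27) and Neto1 (0.30), where the median over all named genes was 1.16. Pcdh15 and Galnt13 belong to the precursor list above. Hpgds, which encodes a prostaglandin D synthase, had a dorsal minus ventral value of 0.69 among non-astrocytes, on the arrays by which it was chosen.

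Nearest to Cspg4 were Rnf43 (0.09), Mmp15 (0.10), BC068157 (0.12), Tubb6 (0.12) and Me3 (0.13), against a median of 0.60, and Mmp15 is on the precursor list. All 5 had positive dorsal minus ventral values among non-astrocytes, from 0.24 to 0.37, on the same arrays by which they were chosen. Nearest to Lhfpl3 were Sorcs3 (0.15), Matn4 (0.16), Smap2 (0.17), Igfbp3 (0.17) and Cntn1 (0.17), against a median of 0.71, and Matn4 is on the precursor list. All 5 shared the opposite regional signs, again on the arrays by which they were chosen. Sorcs3, a sorting receptor gene, stood at 0.29 among non-astrocytes and -0.46 among astrocytes. Nearest to C1ql1 were Dmrta1 (0.19), Spata13 (0.27), Uhrf1 (0.29), Lims2 (0.29) and Khdrbs2 (0.29), against a median of 0.79. All but Uhrf1, at -0.04 among non-astrocytes, had opposite regional signs on these same arrays. Dmrta1, a transcription factor gene, stood at 0.36 and -0.40.

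Of the nearest genes of C1ql1, Lims2 is on the committed list. Of the nearest genes of Neu4, Myrf is on the myelinating and Nfasc on the committed list, and of those of Gpr17, Enpp6 is on the committed and Dcx on the neuronal list. Neu4 lay nearest to Myrf (0.13), which encodes the regulator of myelin genes, Nfasc (0.14), the cell adhesion gene neurofascin, Gpr176 (0.14), Phldb1 (0.14) and Zeb2 (0.15), against a median of 0.67. Gpr17 lay nearest to Enpp6 (0.14), Vxn (0.14), Sema3d (0.15), Dcx (0.17) and St8sia3 (0.18), against a median of 1.04. Among the 6 genes themselves the closest pair was Cspg4 and Lhfpl3 at 0.19, followed by Lhfpl3 and C1ql1 at 0.33, while Pdgfra lay nearest to Gpr17 at 0.38 and 0.98 from Cspg4.

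**Figure D5:**
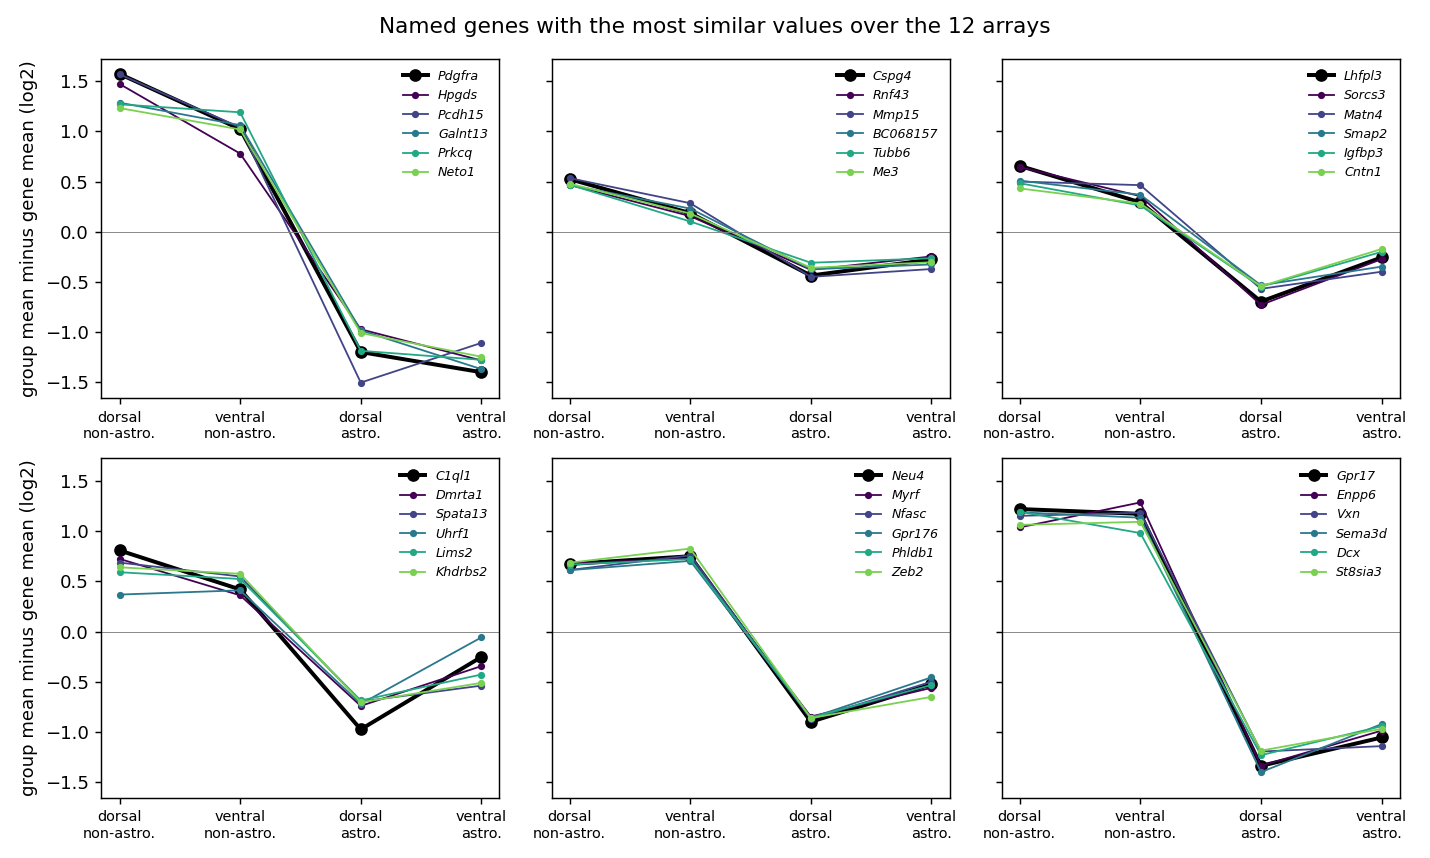
Group means of each of the 6 genes (black) and of its 5 nearest named genes, each centred on its own mean, in log2 units over the 4 groups. The curves of the 5 nearest genes follow the drop from non-astrocytes to astrocytes, and around Gpr17 their dorsal minus ventral values among non-astrocytes run from -0.25 for Enpp6 to 0.21 for Dcx.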

How the data were processed

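RNA of 12 sorted samples, amplified and labelled with biotin per the labels' protocols, was measured on arrays. The submitters' processing notes name oligo, RMA and limma without versions, and a genome build was not stated. The series table deposited by the authors holds log2 values per probe set. A further table by the authors gives names, the same log2 values, a ratio as fold change, a t statistic score and a p-value with its adjusted p-value for probe sets with an adjusted p up to 0.15, and a smaller one does so for dorsal against ventral astrocytes. Scanner intensities were not used here, so background correction and normalization could not be varied.

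Of 35556 probe sets, 476 repeated another and were collapsed. Names came from the authors' tables by matching the 12 values, sorted within groups, to 6 decimals, which named 5116 probe sets, and were updated through the RefSeq table. The first 6613 probe sets, numbered one by one and without names, were left out as control-type, on the numbering alone. The 6 contrasts were fitted with limma 3.58.1 in R 4.3.3 over the remaining 28467, with 1 mean per group, two-sided, Benjamini-Hochberg adjustment and a threshold of 0.05. The fit was checked on simulated data in which 200 probe sets were changed and all arrays were drawn independently. That check does not cover arrays that vary together. The design has no block. The titles number the replicates without saying what a number shares. Across probe sets, the deviations of dorsal and ventral non-astrocytes of 1 number from their group means correlated at 0.15 to 0.21, and those of other numbers at -0.14 to -0.04, so these arrays were taken as paired from the data, and the values with the block are given there. Between ventral astrocytes and ventral non-astrocytes, same-numbered arrays correlated at 0.086 to 0.124 and those of other numbers at -0.100 to -0.017. Between dorsal and ventral astrocytes these ranges were 0.041 to 0.145 and -0.101 to 0.034. They overlapped only between the dorsal sorts, at 0.039 to 0.096 and -0.105 to 0.056. The authors' array names also repeat their numbers over all groups. The block joined same-numbered arrays of all groups, and the main fit left it out. With the block in limma, the lowest adjusted p of the 6 genes was 0.17 between dorsal and ventral astrocytes. It was 0.27 for the difference of the regional values. The genes and lists were chosen with earlier results of these data known. For each list the genes named were up to 3 called ones of largest change in a direction, further ones being named after their values were seen, and for each of the 6 genes the 5 nearest. Where a gene had several probe sets, the brightest was used. The sequences are from RefSeq. The values of 1 listed gene are not reported here. Plots used matplotlib 3.10.9 under Python 3.11.15.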

Additional observations from a re-analysis of the deposited data

Results flagged for a closer look

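Lhfpl3 was flagged among the 6 genes for dorsal values above its ventral ones on all non-astrocyte arrays and below them on all astrocyte arrays. Singly, such a separation was found for 5.73% and 7.23% of probe sets. The share of probe sets with both was not counted. The difference of both regional values was 0.80 on the log2 scale, with an adjusted p of 0.26 in limma over all probe sets and of 0.061 to 0.91 over 21 alternatives.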

How the results depend on the processing

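The count of the 6 genes called stayed at 6 between the sorts over both regions and within the dorsal part, and at 0 in both regional comparisons and their difference, under all 22 alternatives where they applied. Within the ventral part it was 4 to 6 when arrays were left out and 6 under the others. With the replicate number as a block, the counts were 6 between the sorts and 0 between regions, and no call of the 6 genes changed. Of 780 values of single genes under an alternative, 772 kept direction and side of the threshold. The call of C1ql1 between the ventral sorts was lost in 5 and that of Lhfpl3 in 1, as given above. The dorsal minus ventral value of Neu4 among non-astrocytes, -0.08, turned to 0.035 without ventral non-astrocytes 3 and to 0.054 without the arrays of replicate 3, and ranged from -0.17 to 0.054 when arrays were left out. The count of all probe sets called between regions among non-astrocytes was 14, and 0 with the block or with the leading probe sets included, 1 with these groups alone, 0 to 31 when arrays were left out and 43 with weights per array. The cause was not tested. Signals near the array medians limit Cspg4 and Neu4 in astrocytes.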

Other observations

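Genes of growth signals that act on precursors were also measured. Of 31 listed, 14 were named, and 10 were higher and 4 lower in astrocytes. Of all 4575 named genes, 2238 were called higher and 2319 lower there, so these counts are a description. The ligand gene Pdgfd stood at 3.77, the receptor gene Fgfr3 at 2.47 and the receptor gene Ntrk3 at 1.74 on the log2 scale of astrocytes minus non-astrocytes, while the neuregulin receptor gene Erbb3 stood at -1.86 and Pdgfa at -0.86. Pdgfa and Pdgfc both encode ligands of the receptor made from Pdgfra, and Pdgfc stood at 0.97 (adjusted p = 2.7e-05 in limma), the opposite direction. Etv5, a transcription factor gene of this list, was higher in dorsal than in ventral non-astrocytes, at 0.58 (SE 0.08, adjusted p = 0.037 in limma), a call that held in 6 of 22 alternatives and was lost with the replicate block (adjusted p = 0.08).

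Of 30 regulators of precursor differentiation, 18 were named, with 11 higher and 7 lower in astrocytes. The counts here are a description too, beside 2238 called higher and 2319 lower of all 4575 named genes. Adgrg1 at 2.44 and the inhibitor gene Id2 at 2.41 were furthest up, and St18 at -2.46, a zinc finger gene, and Zeb2 at -1.51 furthest down. Of 32 relatives and partners of the 6 genes, 11 were named, with 7 higher and 4 lower. Adgrb3, which encodes the receptor of C1ql1, stood at 1.49, Lhfp, a relative of Lhfpl3, at 1.05 and Neu3, a relative of Neu4, at 0.46. In this list Plcb1 was called between dorsal and ventral astrocytes, at -0.91 (SE 0.14, adjusted p = 0.022), and in 13 of 22 alternatives.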
